A study of Mus musculus with 3 samples.

Results

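The cells described here are the 174 mouse naive CD4 T cells that the authors placed in the High class of surface CD5, of 697 cells in all. They were taken as every cell called High in the deposited classification: 49, 55 and 70 cells of plates 1, 2 and 3. The reference for every comparison is the Middle class of the same plates, with 349 cells (75, 100 and 174). Both classes came from the spleen and lymph node of unmanipulated C57BL/6 mice aged 8 to 12 weeks, with males and females pooled. They shared a sort gate for live singlets that included TCRb, CD4 and CD5 on the surface; CD8-, CD25- or CD44-bearing cells were gated out. The labels name no transgene or treatment. The labels do not say how many animals were pooled or whether the plates came from separate animals. Each cell was sorted into its own well with its CD5 fluorescence on record, and its transcripts were read by SORT-seq, a plate version of CEL-Seq2 that counts the 3′ ends of messenger RNA with a unique molecular identifier (UMI).

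CD5 is a scavenger-receptor-family glycoprotein of T cells that sits with the T cell receptor (TCR) and dampens its signals. Its surface level is set in the thymus and kept up in the periphery by weak, tonic TCR contact with self-peptides, so it is widely used as a gauge of a naive cell's self-reactivity. CD6 is its closest relative, a receptor at the immunological synapse, and the folate-receptor-family protein encoded by Folr4 (also Izumo1r) is known from regulatory and anergic CD4 T cells.

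Median CD5 fluorescence of the High cells was 92494 units in plate 1, 86236 in plate 2 and 89583.5 in plate 3, against 42668, 48060.5 and 45417 in the Middle cells. The High cells reached from 69889 to 175890 units. The class boundary cut a continuous range: the 3 lowest High cells stood at 69889, 70102 and 70316 units, and the 3 highest Middle cells at 69676, 69676 and 69464.

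Transcripts of naive CD4 T cells were found in most High cells. Of the 174 High cells, 94.8% held a UMI of Cd4 (95% exact binomial interval 90.4 to 97.6), 74.7% of Cd3e, 83.3% of Lef1 and 85.1% of Klf2, both transcription factors of the naive state. The naive markers Ccr7, Il7r and Tcf7 were found in fewer, 61.5%, 60.3% and 62.6%. Cd44, whose protein the gate avoided, was seen in 10.9% of High cells. Cd8a was seen in 2 cells and the B cell gene Cd79a in 3, while Ccl5, Ms4a1 and Alas2 were seen in 0 of 174, which allows a share of cells with a UMI of up to 1.72% (3 of 174) and sets no limit on cells that express these genes below detection. Other markers of cells outside the label were seen more often: Cd8b1 and Cd74 in 4 High cells each, Il2rb and H2-Aa in 6 each, and the NK cell gene Klrd1 in 15. Foxp3, a marker of regulatory T cells, was seen in 19. The intervals and limits given here cover counting error only. Some well positions held a kept cell on more than 1 plate: 42 in both plates 1 and 2, 150 in plates 1 and 3, and 173 in plates 2 and 3. Whether such wells shared a cell barcode was not tested.

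Plate 2 stood apart in the summed levels of the class markers Cd5 and Cd6, but not of Folr4. Its High cells were sorted at about the same CD5 level as those of the other plates, but their Cd5 level was close to that of its Middle cells and their Cd6 level was below it. The match of wells to sort records was not tested in any plate. Values are therefore also given without plate 2 for the markers, the counts of calls, the leading genes and the lists. Plate 2 was singled out on its Cd5 and Cd6 levels, so p-values without it are descriptive and no independent test. In plate 1, the High cell with most UMIs (13169) held the most UMIs of Cd5, Cd6, Bcl2 and Igf2r at once, and in plate 3 one High cell gave 44.3% of its 9574 UMIs to Kcnq1ot1 and its co-varying transcripts, against a median of 1.38% over the High cells. Values without these cells are given for Cd5 and for the genes called without plate 2.

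High cells held 197745, 287410 and 295682 UMIs in plates 1, 2 and 3, or 780837 together. The median High cell held 2527, 5401 and 3688 UMIs in plates 1, 2 and 3, and the median Middle cell 3746, 5770 and 3784. The log2 ratio of medians was -0.57, -0.10 and -0.04 (mean -0.23, SD 0.29; p = 0.25 in a two-sided exact permutation of signs, the smallest that 3 plates can give). High was thus lower in 3 of 3 plates, by little outside plate 1, and the ratio of mean UMIs per cell was -0.08 (SD 0.059). Mitochondrial transcripts took 16.0%, 12.8% and 15.01% of High UMIs against 16.3%, 12.9% and 14.8% of Middle UMIs, so the share differed more between plates than between classes.

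In total 11632 of the 14355 genes in the table were seen in at least 1 High cell. Of these, 4060 were seen in at least 10% of High cells, 420 in at least 50% and 108 in at least 90%. The 15 most abundant took 19.5% of all High UMIs. Since each UMI stands for one molecule read at its 3′ end, levels compare numbers of molecules and were not scaled by gene length. They are given as scaled counts per 1000000 UMIs of the genes tested below (CPM), with the SD over 3 plates. Beside mitochondrial transcripts and the ribosomal RNA precursor Rn45s, the top 15 held Tpt1 at 9582 ± 577 CPM and the translation factor Eef1a1 at 6260.3 ± 148. Also among them were the actin-sequestering thymosin Tmsb4x at 6771 ± 1032 and the long noncoding RNA Kcnq1ot1 at 8806 ± 4338. Middle cells stood at 9914, 6569, 6037 and 7149.7 CPM, and none of the 15 passed the test described below over all 3 plates.

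The transcript of the sorted protein was the first to be compared. Cd5 lies on the minus strand of chromosome 19 at 10717116 to 10739002 (GRCm38, GENCODE M21), and Cd6 is its neighbour at 10789341 to 10830058, 50.3 kb away on the same strand. The 250 bases before the RefSeq start of Cd5 (GRCm38.p6, chr19:10738975-10739224, minus strand) are shown 5′ to 3′ because its level is the result on which the comparison turns. Capitals mark CAGGTG, read on either strand (CACCTG), a sequence of the E-box form CANNTG that was picked after reading this window. It occurs at 2 places here, and 17.2% of 32851 windows of 250 bases before RefSeq starts hold it at least once. This is a description of the letters and no evidence of a bound site.
Cd5 upstream: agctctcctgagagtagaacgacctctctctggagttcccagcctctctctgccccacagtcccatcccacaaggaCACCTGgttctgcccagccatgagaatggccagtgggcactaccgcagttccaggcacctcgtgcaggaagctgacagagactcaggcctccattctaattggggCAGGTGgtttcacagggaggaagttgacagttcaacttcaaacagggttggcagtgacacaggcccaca

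Cd5 was measured at 683 CPM in plate 1, 299.98 in plate 2 and 359 in plate 3 in the High class, after scaling library sizes by trimmed means (TMM). The Middle class had 211, 264 and 179 CPM. High was above Middle in 3 of 3 plates and the 2 groups of 3 sums did not overlap, but plate 2 differed far less than the others, with log2 ratios of 1.69, 0.18 and 1.0. The fitted log2 difference was 1.01 (SE 0.27), a 2.01-fold higher level, with an adjusted p of 0.47 by edgeR's quasi-likelihood test over all genes (0.00389 to 1.0 over the alternatives). Over 3 plates Cd5 therefore did not pass, although it did with no filter on low genes (0.97, edgeR adjusted p = 0.0303). Without plate 2 the difference was 1.32 (SE 0.25, 2.49-fold, edgeR adjusted p = 0.00389), and without plate 2 and the cell of most UMIs in every sum it was 1.23 (edgeR adjusted p = 0.0458). Since plate 2 was left out for its small Cd5 difference, these 2 values do not test Cd5 independently.

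Cd6 stood at 385, 181 and 344 CPM in High and 211, 256 and 154 CPM in Middle cells. The plates went in different directions, with log2 ratios of 0.86, -0.49 and 1.16, and the groups overlapped. The fitted difference was 0.61 (SE 0.28, edgeR adjusted p = 0.998). Without plate 2 it was 1.02 (SE 0.27, edgeR adjusted p = 0.157) and still did not pass.

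Folr4, on the minus strand of chromosome 9 at 14885814 to 14903949, had 363, 274 and 250.1 CPM in High and 330, 247 and 125 CPM in Middle cells. It was higher in 3 of 3 plates, but by 0.14 and 0.15 on the log2 scale in plates 1 and 2 against 0.99 in plate 3, and the groups overlapped. The fitted difference was 0.43 (SE 0.23, edgeR adjusted p = 0.998), and 0.55 without plate 2. A single Middle cell of plate 1 held 37 of that sum's 97 Folr4 UMIs.

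**Figure D1:**
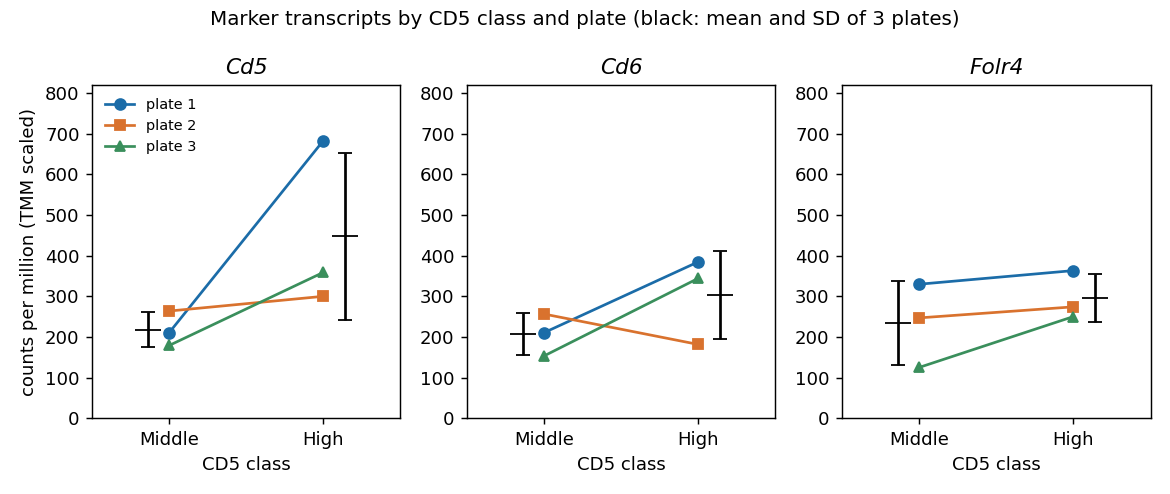
Level of Cd5, Cd6 and Folr4 in CPM (vertical axes, linear from 0) in the Middle and High class, with 1 line per plate and the mean and SD of the 3 plates in black. The Cd5 line goes up steeply from Middle to High in plates 1 and 3 (211 to 683 and 179 to 359) and little in plate 2 (264 to 299.98), and the Cd6 line of plate 2 slopes down.

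The share of cells with at least 1 Cd5 UMI gave a more even picture across plates. It was 63.3%, 56.4% and 51.4% of High cells in plates 1, 2 and 3 against 44%, 43% and 37.4% of Middle cells. The difference was 19.3, 13.4 and 14.1 percentage points (mean 15.6, SD 3.2, p = 0.25 in the same exact permutation test). Drawn down to 2119 UMIs a cell, a depth that 132 of 174 High and 275 of 349 Middle cells reached, the shares were 65.6%, 45.7% and 44.4% against 28.3%, 30.3% and 24.8%. High was higher in 3 of 3 plates with or without this thinning, plate 2 included.

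Cd6 was found in 46.9%, 34.5% and 52.9% of High cells against 30.7%, 50% and 33.9% of Middle cells, so plate 2 went the other way by 15.5 points. Folr4 was found in 46.9%, 40.0% and 34.3% of High and 38.7%, 30% and 18.97% of Middle cells, higher in 3 of 3 plates (mean 11.2 points, SD 3.7, exact permutation p = 0.25). Of the 174 High cells, 42 held no UMI of the 3 genes, 50 held 1 of them, 50 held 2 and 32 held all 3. All 3 were found together in 18.4% of High and 7.74% of Middle cells, and in each plate the High share was the higher (22.4% against 9.33%, 16.4% against 9.0% and 17.1% against 6.32%).

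A missing UMI was tied to shallow cells. In plate 1, High cells with a Cd5 UMI held a median of 5219 UMIs and those without it 1655, and plates 2 and 3 gave 6490 against 3605 and 5372 against 2946. Median CD5 fluorescence of High cells with and without a Cd5 UMI was 93913 and 89311 in plate 1, 84416 and 88502.5 in plate 2, and 92635 and 84288 in plate 3. Protein was higher in the cells with the transcript in plates 1 and 3 and lower in plate 2.

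The cells of each class and plate were further ordered by CD5 and cut into 3 bins of near-equal size, with CPM now of the plain UMI sums. In plate 1, Cd5 stood at 405, 748 and 699 CPM from the lowest to the highest bin of the High class, and in plate 3 at 159.9, 395.5 and 432. Plate 2 gave 282, 328 and 228. The top bin was thus above the bottom bin in plates 1 and 3 and below it in plate 2, and these sums rest on 15 to 59 Cd5 UMIs. Cd6 had no common order, with 221, 469 and 342 CPM in plate 1, 198, 205 and 95.9 in plate 2, and 330.5, 339 and 299.9 in plate 3. Folr4 was lowest in the middle bin of every plate, at 241, 51.2 and 147 CPM, values that rest on 19, 5 and 13 UMIs. The Middle class was likewise lowest in its middle bin in every plate, at 74.0, 198 and 54.6 CPM.

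**Figure D2:**
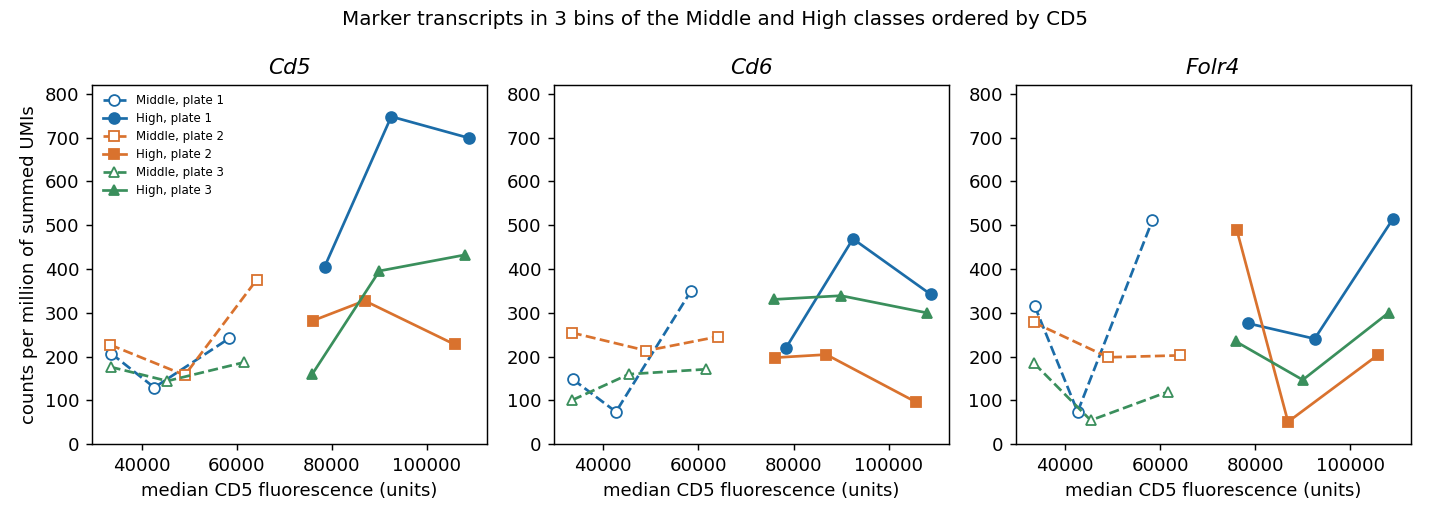
CPM of summed UMIs (vertical axes) against the median CD5 signal (horizontal axes, fluorescence units) for 3 bins of the Middle class (open symbols, dashed) and of the High class (filled, solid), by plate. For Cd5, the High bins of plate 1 lie at 405 to 748, above every Middle bin of that plate, while those of plate 2 (228 to 328) lie among its Middle bins.

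Across the transcriptome, 4813 genes were expressed highly enough to be tested between High and Middle with the plate as a block. At an adjusted p under 0.05, 0 genes were higher (0%) and 0 lower (0%) in the High class by edgeR's quasi-likelihood test. The unadjusted p was under 0.05 for 183 genes (3.8%), and the DESeq2 Wald test called 0 genes with 79 under that value (1.64%). These p-values measure the spread between sums of cells of these plates, which may be technical. Without plate 2, 5 of 5113 genes were higher (0.0978%) and 1 was lower (0.0196%), and 206 had an unadjusted p under 0.05 (4.03%).

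The genes of smallest p with a higher level in all 3 plates are named as leading values, none of which passed. All-plate agreement by itself was common, since 12.2% of tested genes were higher and 13% lower in 3 of 3 plates. Igf2r, the mannose 6-phosphate receptor that carries enzymes to lysosomes, led them. It stood at 146, 119 and 145 CPM in the High class and 30.6, 33.7 and 68.2 CPM in the Middle class, and the groups did not overlap, which held for 4.16% of tested genes in this direction. The log2 difference was 1.63, and 1.56 without plate 2 (SE 0.38 over 3 plates, 3.09-fold, edgeR adjusted p = 0.44, and 0.0546 to 1.0 over the alternatives). A UMI of Igf2r was found in 20.4%, 25.5% and 32.9% of High cells against 10.7%, 16.0% and 17.2% of Middle cells. In plate 1, 12 of the 27 High UMIs came from the cell of most UMIs. Without the top cell of each sum, the High levels were 81.3, 96.0 and 121 CPM of plain sums and the Middle levels 22.4, 26.2 and 60.6.

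Usp4, a deubiquitinase, followed with 65.1, 215 and 138 CPM against 40.8, 31.8 and 82.5 (log2 1.47). Most of that difference came from plate 2, and without it the value was 0.69. Efhd2, a calcium-binding actin regulator, had 141, 59.3 and 50.8 CPM against 17.0, 43.0 and 25.6 (log2 1.40). Rab11a, a GTPase of recycling endosomes, had 97.6, 85.2 and 79.8 CPM against 27.2, 54.2 and 29.9 (log2 1.22). The High sums of Efhd2 and Rab11a lay above all Middle sums. The DNA polymerase zeta subunit Rev3l (log2 0.78), the zinc transporter Slc39a9 (1.48), the phosphoinositide phosphatase Mtmr1 (1.18), Btbd1 (1.11) and the lysine-63 deubiquitinase Brcc3 (1.03) completed the list, each with an edgeR adjusted p of 0.998. Without plate 2, Efhd2 stood at 1.91, Rab11a at 1.60, Rev3l at 0.96, Slc39a9 at 1.70, Mtmr1 at 1.11, Btbd1 at 1.14 and Brcc3 at 1.24.

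Among genes lower in all 3 plates, Iars, the isoleucyl-tRNA synthetase, stood at 10.8, 29.6 and 25.4 CPM in High against 119, 73.0 and 59.7 in Middle cells (log2 -1.76, SE 0.46, edgeR adjusted p = 0.45). Cbll1, a ubiquitin ligase of the RNA methylation machinery, had 21.7, 11.1 and 7.25 CPM against 44.2, 61.7 and 58.3 (log2 -2.12). Glrx, the thiol-reducing glutaredoxin, had 5.42, 18.5 and 10.9 CPM against 85.0, 43.0 and 31.3 (log2 -1.97). In all 3 genes the High sums lay below every Middle sum, as they did for 3.78% of tested genes. Wdr92 was far more abundant, at 2684, 3022 and 3052 CPM against 3634, 3485 and 3461 (log2 -0.27, SE 0.078). The chromatin reader Phip (-0.87), the peptidase Tpp2 (-0.93), the interferon-induced GTPase Gbp4 (-0.87), Fchsd2 (-1.58) and Gm14085 (-0.99) also had negative values that did not pass. Without plate 2, Iars stood at -2.08, Cbll1 at -1.95, Glrx at -2.53, Wdr92 at -0.31, Phip at -0.89 and Tpp2 at -0.997. Plate 2 moved the others more, to -0.61 for Gbp4, -1.07 for Fchsd2 and -1.56 for Gm14085 when it was left out. Rn45s had the smallest p of the lower genes, at 21221, 51081 and 22803 CPM against 23850, 54896 and 27420 (log2 -0.18, SE 0.045, edgeR adjusted p = 0.44), and with cells thinned to one depth its sign turned to 0.14. It passed with no filter (-0.22, edgeR adjusted p = 3.59e-09) and in a fit of High and Middle sums alone (-0.18, edgeR adjusted p = 0.00844).

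**Figure D3:**
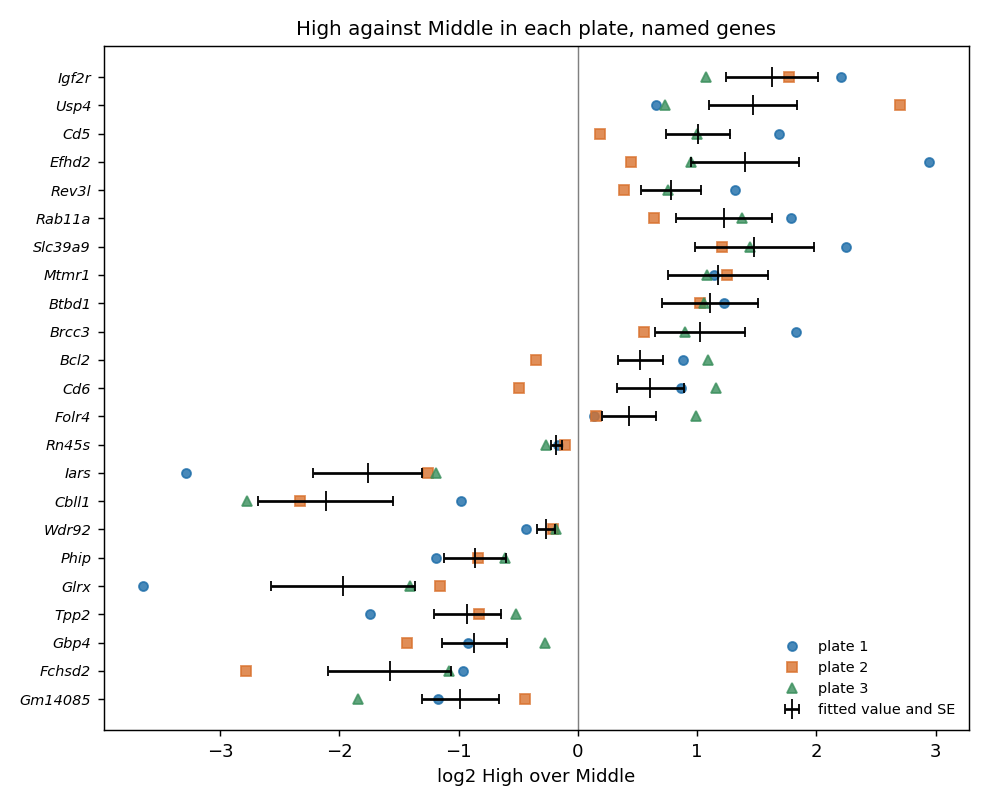
Log2 ratio of High over Middle (horizontal axis) for the leading genes of each direction, Bcl2 and the 3 markers, with 1 symbol per plate and the fitted value with its SE in black. Mtmr1 and Btbd1 have nearly equal ratios in all 3 plates, whereas Usp4 lies farthest from 0 in plate 2, Efhd2, Iars and Glrx in plate 1, and Bcl2 and Cd6 have plate 2 on the other side of 0.

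Without plate 2, the 5 higher genes were Cd5, Bcl2, Kcnq1ot1, A630089N07Rik and Gm17821, and the lower gene was Rn45s. Bcl2, which encodes the survival protein that blocks mitochondrial apoptosis, stood at 786, 507 and 573 CPM in High and 425, 649 and 267 CPM in Middle cells. Plate 2 was reversed (log2 ratios 0.89, -0.35 and 1.10), and the fitted difference was 0.53 over 3 plates and 0.99 without plate 2 (SE 0.20, edgeR adjusted p = 0.00559, with 0.00559 to 1.0 over the alternatives). In each plate 1 High cell held many of the Bcl2 UMIs, 43 of 145, 26 of 137 and 42 of 158, with 13, 11 and 11 in the next cell. Without plate 2 and the cell of most UMIs in every sum, the Bcl2 difference was 0.57 (edgeR adjusted p = 0.999), so this call rested on those cells. The Rn45s difference of -0.23 without plate 2 (edgeR adjusted p = 0.0024) was -0.17 without those cells as well (edgeR adjusted p = 0.641) and no longer passed. In the median cell, Rn45s took 1.60% of UMIs in High and 1.38% in Middle cells of plate 1, 2.45% and 2.89% in plate 2, and 1.40% and 1.23% in plate 3, so in plates 1 and 3 the median High cell had the larger share although the High sum had the lower level. In shares of cells Bcl2 differed by -2.3, -4.0 and 8.0 points.

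Whether reads of Kcnq1ot1 and its co-varying transcripts were assigned to the right genes was not tested. Kcnq1ot1, an imprinted noncoding RNA, had 9114, 4322 and 12982 CPM against 8396, 4809 and 8243 (log2 0.38 without plate 2, edgeR adjusted p = 0.00111). Without plate 2 and the plate 3 cell rich in it, the value was -0.08, and neither A630089N07Rik nor Gm17821 was called. Cd5, Bcl2 and Rn45s remained, each at an edgeR adjusted p of 0.0265.

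The gene lists below were compared by counts and medians, with no list test, beside all 4813 tested genes, of which 2362 had a positive value, with a median log2 difference of -0.01. In every list 0 genes passed over 3 plates. Negative regulators of TCR signalling had a positive value for 19 of 23 tested genes (median 0.27) with plate medians of 0.38, 0.22 and 0.34. The list holds Cd5 and Cd6. Its other leading members were Dok2, an adaptor that restrains Ras signalling, at 70.5, 107 and 102 CPM in High against 51.0, 58.0 and 42.7 in Middle cells (log2 0.91), and Ptpn22, the phosphatase that turns off Lck and ZAP-70, at 331, 352 and 236 CPM against 211, 275 and 178 (log2 0.47). Dok2 sums did not overlap, and 3 members in all, Cd5 among them, had High sums above all Middle sums, against 1 with High sums below. Over all tested genes these shares were 4.16% and 3.78%. The list took 0.625%, 0.561% and 0.579% of High UMIs and 0.521%, 0.544% and 0.493% of Middle UMIs.

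Genes on the activating side of the receptor lay near the median of all genes. The CD3 chains and Cd4 had positive values for 2 of 5 (median -0.11), with Cd4 at -0.11 and Cd3d at 0.14. Proximal kinases and adaptors had 12 of 18 (median 0.05), among them Bcl10, which links the receptor to NF-kB, at 0.76. Early genes of TCR stimulation had 6 of 16 (median -0.05), with Egr1 at -0.72, Dusp1 at -0.39, Ier2 at 0.42 and Cd69 at 0.32. Egr1, a transcription factor induced rapidly by stimulation, stood at 16.3, 81.5 and 14.5 CPM in High and 98.6, 61.7 and 38.4 CPM in Middle cells, with plate 2 on the other side, and at -1.99 without plate 2 (edgeR adjusted p = 0.747). Costimulatory receptors had 8 of 11 (median 0.15): Cd226 stood at 97.6, 59.3 and 50.8 CPM against 44.2, 22.4 and 38.4 (log2 0.94), while Cd27 (0.33), Cd2 (0.27) and Icos (0.52) differed less.

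Regulatory T cell markers had positive values for 4 of 5 tested genes (median 0.57), a list that holds Folr4. Foxp3, the lineage factor, was found in 19 of 174 High cells (10.9%) and 20 of 349 Middle cells (5.73%), although the gate excluded CD25. By plate these were 0, 4 and 15 High cells against 0, 1 and 19 Middle cells. Il2ra, which encodes CD25, was found in 4 High cells. Tnfrsf18, the receptor GITR, had 70.5, 40.7 and 43.5 CPM against 34.0, 16.8 and 27.0 (log2 0.98), and Ikzf2, the factor Helios, had 0.57. With Foxp3-positive cells left out of both classes, 0 genes passed by edgeR and 173 had an unadjusted p under 0.05. Follicular helper genes had positive values for 4 of 4, with Asap1 at 136, 148 and 138 CPM against 54.4, 112 and 95.3 (log2 0.67) and no overlap. Of all tested genes, 4.16% had High sums above all Middle sums. Genes of recent thymic emigrants had 3 of 3, with Itm2a at 211, 104 and 79.8 CPM against 40.8, 99.1 and 75.4 (log2 0.68), nearly all of it from plate 1.

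Interferon-response genes had negative values for 21 of 28 tested genes (median -0.47), and 9 of them were lower in 3 of 3 plates, as were 13% of all tested genes. The plates were unequal, with medians of -0.70, -0.06 and -0.07. The list took 0.265%, 0.285% and 0.247% of High UMIs against 0.419%, 0.315% and 0.25% of Middle UMIs. Gbp7, a guanylate-binding protein, had 21.7, 63.0 and 90.6 CPM against 211, 86.0 and 99.5 (log2 -1.05), and Ifi35 had -1.25, while Ifi27l2a went the other way at 201, 307 and 236 CPM against 194, 149.6 and 144 (log2 0.62). Ly6 surface genes were negative for 4 of 4 (median -0.38), again from plate 1, with plate medians of -1.53, 0.16 and -0.14. Ly6a, the Sca-1 antigen, had 75.9, 189 and 97.9 CPM against 350.1, 163 and 118. Like Ly6a, Ly6e (-0.28), Ly6c1 (-0.49) and Thy1 (-0.16) were positive in plate 2, and Ly6c1 turned positive (0.23) without plate 1. Genes of MHC class I presentation had 14 of 18 negative values (median -0.10), with the peptide-trimming enzyme Erap1 at -1.16. Its High sums lay below all Middle sums, as they did for 3.78% of all tested genes.

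Cytosolic ribosomal protein genes had negative values for 62 of 75, but the median was only -0.05. Of these, 24 were lower in 3 of 3 plates, such as Rpl4 (5178, 3755 and 4912 CPM against 5945, 4053 and 5569, log2 -0.16), Rps12 (-0.19), Rpl3 (-0.19) and Rpl36a (-0.25). Of all tested genes, 13% were lower in 3 of 3 plates. The ribosomal protein genes took 18.1%, 18.98% and 17.0% of High UMIs and 18.5%, 19.3% and 18.2% of Middle UMIs. Genes of the nuclear-encoded respiratory chain were split 38 to 39 (median -0.01), with Atp5l at -0.56 and Cox6c at 0.54, both without overlap. Of the 77 tested genes of this list, 3 had High sums above and 2 below all Middle sums. Over all tested genes the shares were 4.16% and 3.78%.

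Glycolysis genes had a fitted median of -0.01 with 5 of 11 positive, although each plate's own median was above 0 (0.03, 0.25 and 0.27). Pgam1 had 86.7, 126 and 102 CPM against 51.0, 48.6 and 68.2 (log2 0.92). The glucose transporter Slc2a3 (0.91) and Tpi1 (1.26) were also without overlap, and hexokinase Hk1 was at -0.67. Of the 11 glycolysis genes, 4 had High sums above and 0 below all Middle sums, against 4.16% and 3.78% of all tested genes. Chromatin regulators had positive values for 24 of 39 (median 0.05), with the NuRD helicase Chd4 at 342, 293 and 247 CPM against 184, 226 and 193 (log2 0.52) and the cohesin subunit Smc1a at 0.54. Genes of the naive state had 14 of 25 positive (median 0.02), among them Ets1 at 0.27, and survival and cytokine receptor genes had 11 of 20 (median 0.04), among them Stat6 at 0.57.

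The remaining lists also stayed near the median of all genes or held few tested genes. Effector and memory markers had positive values for 3 of 8 genes (median -0.13), heat shock and stress genes for 5 of 15 (-0.07) and actin and integrin genes for 15 of 33 (-0.07). Subunits and feedback genes of NF-kB had 8 of 15 (0.01), cycling markers 5 of 7 (0.13), and amino acid transport and serine synthesis 3 of 6 (0.17). Self-antigen and anergy genes had 4 of 5 (0.43). That list shares Folr4, Tnfrsf18 and Ikzf2 with the regulatory T cell markers. It also shares Ikzf2 and Tox with the thymic emigrant genes, so these lists are not separate results. Transcripts of the mitochondrial genome had 4 of 15 (-0.02). Kcnq1ot1 and its co-varying transcripts had 7 of 8 (0.27), with a negative median in plate 2 (-0.16).

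Without plate 2, the median of the negative regulators was 0.28, of the regulatory T cell markers 0.69 and of the follicular helper genes 0.44. The interferon list moved to -0.65, the Ly6 list to -0.72, MHC class I presentation to -0.16, glycolysis to 0.19, chromatin regulators to 0.11, survival and cytokine receptors to 0.14 and costimulatory receptors to 0.08. The CD3 chains with Cd4 moved to 0.01, the proximal kinases and adaptors to 0.05, the ribosomal protein genes to -0.07 and the respiratory chain to -0.06. Other members whose value moved by over 1.5 times included Itm2a (1.07), Icos (0.90), Cd27 (0.51), Cd2 (0.08), Dusp1 (-0.14), Tpi1 (0.73) and Hk1 (-0.33). Among interferon and Ly6 genes these were Ifi35 (-2.32), Ifi27l2a (0.41), Ly6a (-1.18), Ly6c1 (-0.99), Ly6e (-0.46) and Thy1 (-0.27).

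**Figure D4:**
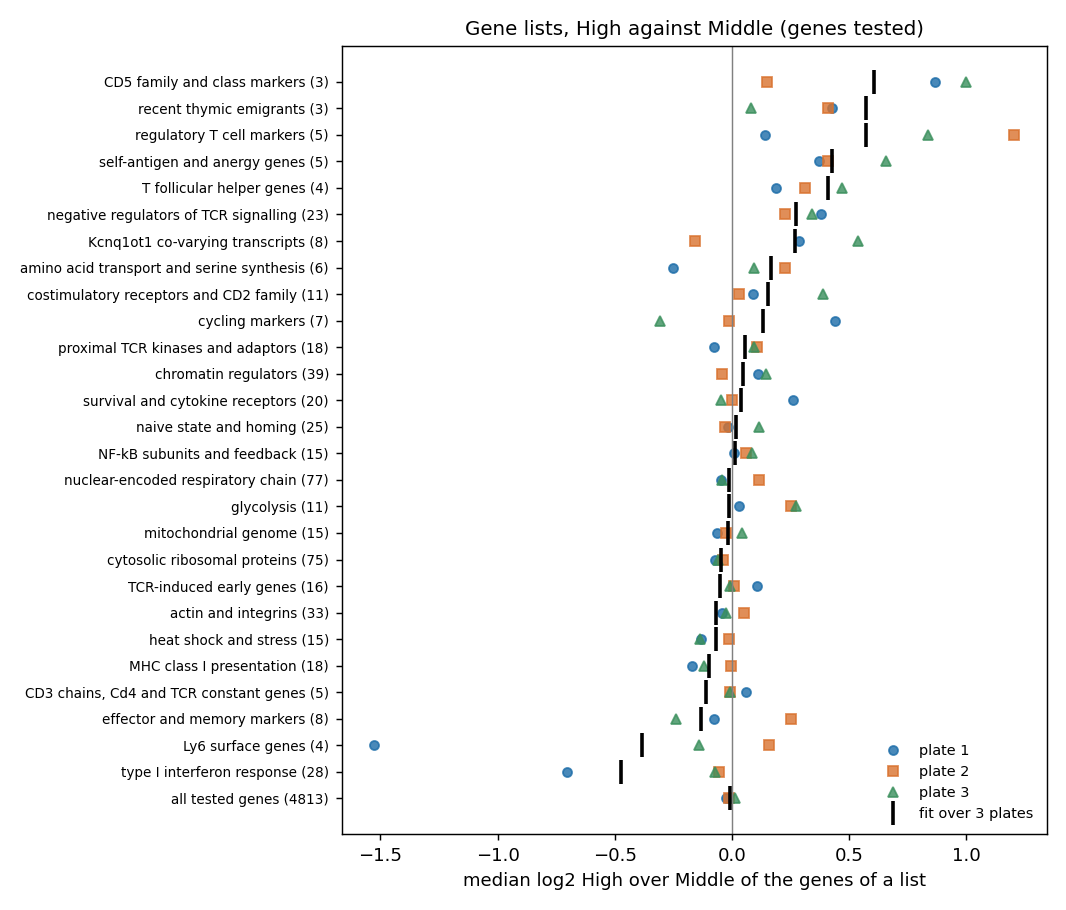
Median log2 ratio of High over Middle of the tested genes of each list (horizontal axis; the number of tested genes is in brackets), per plate as symbols and from the fit over 3 plates as a black bar, with all tested genes at the bottom. The negative regulators have all 3 plates between 0.22 and 0.38, whereas the interferon and Ly6 lists owe their place mostly to plate 1.

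Markers of other cell types were found in the High cells to different extents. CD8 T cell markers together were seen in 8 of 174 cells, B cell markers in 22, NK and innate lymphoid markers in 17 and erythroid and platelet markers in 0. Myeloid markers were seen in 92 cells, mostly through Ctss (39.1% of High and 42.4% of Middle cells) and Cst3 (21.8% and 20.6%). Whether these 2 transcripts came from the T cells themselves was not tested. B cell markers took 0.000506%, 0.00104% and 0.0108% of High UMIs and 0.000622%, 0.00174% and 0.0117% of Middle UMIs in plates 1, 2 and 3. Both classes of plate 3 were thus above the other plates, by similar amounts.

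Within the High class, cells above the plate's median CD5 (upper cells) were compared with the rest (lower cells) over 2036 genes. At an adjusted p under 0.05, 0 were higher (0%) and 0 lower (0%) in the upper cells by edgeR, 121 had an unadjusted p under 0.05 (5.94%), and the DESeq2 Wald test called 0 with 23 under that value (1.13%). Cd5 itself stood at 946, 346 and 544 CPM in the upper and 643, 352 and 233 CPM in the lower cells (log2 0.58, SE 0.27, edgeR adjusted p = 0.76). In plate 2 both had almost equal levels, and the value without plate 2 was 0.85. Cd6 (-0.16) and Folr4 (-0.43) had negative values.

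Shmt2, the mitochondrial serine hydroxymethyltransferase that feeds folate one-carbon units, had the smallest p. It stood at 24.9, 18.2 and 51.4 CPM in the upper and 129, 172 and 242 CPM in the lower cells, without overlap (log2 -2.50, SE 0.60, edgeR adjusted p = 0.0737, and 0.0234 to 1.0 over the alternatives). The share of all tested genes without overlap is not given for upper against lower cells, so lack of overlap only describes the named genes. Of the alternatives it passed only without the plate 3 cell rich in Kcnq1ot1. In that setting Kcnq1ot1 (-0.35), Gm17821 (-0.48) and A630089N07Rik (-0.49) were also called lower in the upper cells, at edgeR adjusted p of 0.0234, 0.00226 and 0.0234. Nin, a centrosome protein, had 99.6, 118 and 44.1 CPM against 270.2, 246 and 214 (log2 -1.53), and the 3′-end processing factor Pcf11 had -1.76. Rpl5 (-0.35), Rnps1 (-1.49) and Pitpnm2 (-1.19) were the other genes of small p with a negative value. Rnps1 was nearly equal in plate 3 (191 against 186 CPM), its groups overlapped, and its value was -0.95 without plate 2. Without that plate Shmt2 stood at -2.24, Nin at -1.83, Rpl5 at -0.29 and Pitpnm2 at -0.93.

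Among higher genes, Gabarapl2, an autophagy protein of the ATG8 family, had 149, 228 and 184 CPM against 12.9, 65.5 and 74.5 (log2 1.85, edgeR adjusted p = 0.289). Trappc12, of the vesicle-tethering TRAPP complex, had 261, 155 and 191 CPM against 51.5, 32.7 and 93.2 (log2 1.75). The thioredoxin inhibitor Txnip (0.75) and the kinase Snrk (1.27) also had upper sums above all lower sums. These genes were picked by smallest p, and no share over all tested genes is given beside this. Without plate 2 the values were 1.91 for Gabarapl2, 1.57 for Trappc12, 0.92 for Txnip and 0.87 for Snrk.

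Without plate 2, 3 of 1874 genes were higher (0.16%) and 2 lower (0.107%) in the upper cells, with 116 at an unadjusted p under 0.05 (6.19%). The 5 genes are named after their values were seen. Hspa5, the endoplasmic reticulum chaperone BiP, stood at 647, 465 and 588 CPM in the upper and 322, 483 and 121 CPM in the lower cells (log2 1.59 without plate 2, edgeR adjusted p = 0.0137). Itga4, the integrin alpha-4 chain, had 1108, 428 and 580.3 CPM against 386, 376 and 326 (log2 1.17, edgeR adjusted p = 0.0449), and the noncoding A130077B15Rik had 0.92. Rn45s (-0.45) and the mitochondrial leucyl-tRNA synthetase Lars2 (-2.18) were lower. Plate 2 went the other way for both, with log2 ratios of 0.41 for Rn45s and 0.78 for Lars2. Over 3 plates their fitted values were -0.16 and -1.06. Without plate 2 and the plate 3 cell rich in Kcnq1ot1, A130077B15Rik stood at 0.07 and Itga4 at 1.05 (edgeR adjusted p = 0.996 and 0.0941). Neither was called in that setting, whereas Hspa5, Lars2 and Rn45s were. When plate 2 and the deepest cell of each sum were left out, only Rn45s was called. Hspa5 then stood at 1.10 and Itga4 at 0.69 (edgeR adjusted p = 0.743 and 0.874).

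**Figure D5:**
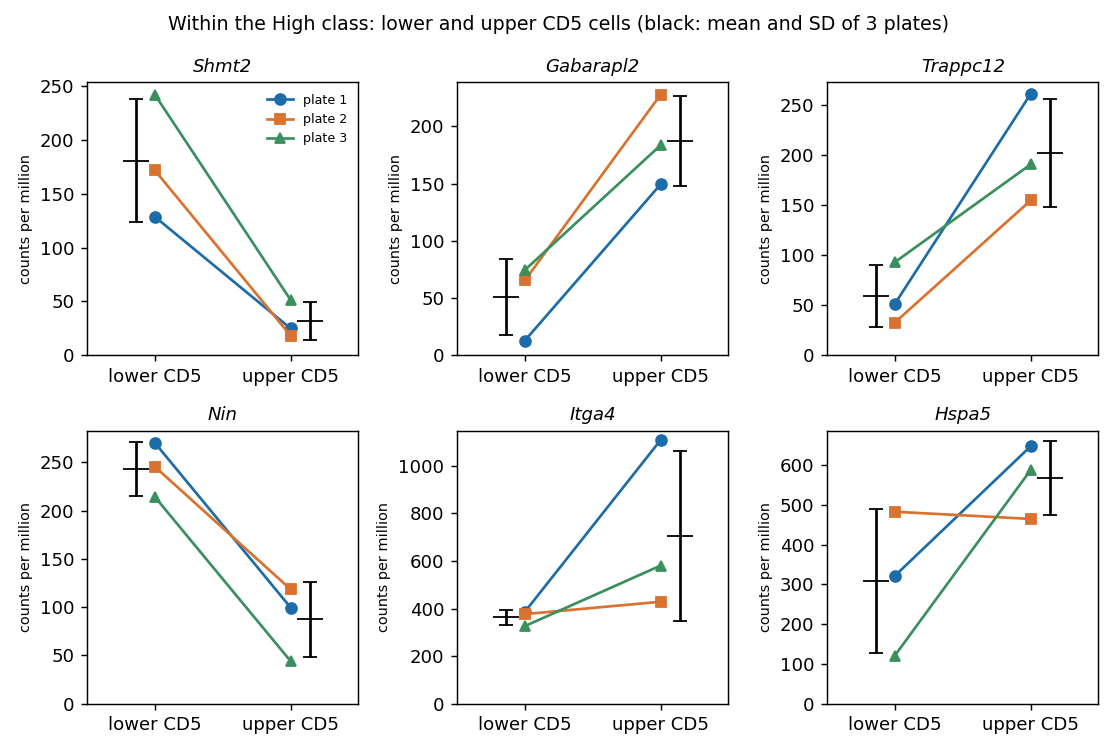
CPM (vertical axes, linear from 0) of 6 genes in the lower and upper CD5 cells of the High class, with 1 line per plate and the mean and SD of the 3 plates in black. Shmt2 and Nin lie lower and Gabarapl2, Trappc12 and Itga4 higher in the upper cells of all 3 plates, while Hspa5 is flat in plate 2 (483 to 465).

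Variation from cell to cell was read at 2119 UMIs per cell in 32, 46 and 54 High cells. Of 3263 genes with enough UMIs in all 3 plates, 10 had a variance-to-mean ratio in the top 5% above the trend in each plate: Rn45s, Kcnq1ot1, Gm17821, mt-Rnr2, A630089N07Rik, mt-Rnr1, Vmn2r55, Grk4, Mir5109 and mtCo1. All 10 were also among the 16 so listed for the Middle class. For Rn45s the ratio was 86.2, 78.2 and 125 in the 3 plates, and for Kcnq1ot1 it was 28.3, 15.8 and 121, the last with the single rich cell. No protein-coding gene of TCR signalling was in the list, and neither were Cd5, Cd6 and Folr4.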

How the data were processed

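Single-cell transcriptomes of 697 index-sorted naive CD4 T cells in 3 plates were used. The deposited expected counts are UMI counts of 14355 genes that the authors corrected for UMI collisions: 100% lay within 0.005 of the value that a whole number of the 4096 UMIs gives, and 8.56% of those above 0 were not whole. Reads were mapped with BWA to mm10, per the submitters' processing notes; no source used here names the counting tool. The deposited CD5 fluorescence is a signal per cell, and the class is the authors'. Spike-ins, 19.6% of counts, entered no fit.

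Counts were summed per plate and class and rounded to whole numbers. The plate was the replicate and, because classes share its library, the block; deviations from class means correlated at 0.378 to 0.709 between sums of a plate over 408 genes. edgeR 4.0.16 (filterByExpr, TMM, quasi-likelihood, R 4.3.3) was fitted to all classes, with Benjamini-Hochberg adjustment at 0.05, two-sided. Low was not compared, but its sums entered the filter, the scaling, the plate terms and the dispersion. Gene dispersions borrowed strength, with 37.9 prior and 4 residual degrees of freedom between classes; within the High class the residual degrees of freedom were 2 and the prior infinite, so those p-values rest on a spread common to genes of like abundance. The scripts were tested on simulated data. DESeq2 1.42.0 was an alternative, beside other scaling, filters, cell sets and plates; leaving out the deepest cells was added after seeing the data. Plots used matplotlib 3.10.9.

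The members and lists were chosen with earlier results of these data known. Named genes are the 3 markers, up to 10 genes of smallest p per direction with one sign in 3 plates where fewer passed, 6 of smallest p per direction within the High class, genes called without plate 2, up to 4 per list, the 15 most abundant and up to 15 variable genes. Some items are not reported here.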

Additional observations from a re-analysis of the deposited data

How the results depend on the processing

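The count of 0 genes between High and Middle over 3 plates stayed 0 under DESeq2 size factors, the DESeq2 Wald test, a mean of at least 50 counts, thinned cells, no Foxp3-positive cells and without the deepest or the Kcnq1ot1-rich cell, and it ranged from 0 to 6 when 1 plate was left out (6 without plate 2). It was 2 with no filter, 1 from High and Middle sums alone (Rn45s), 3 without plate 2 and the Kcnq1ot1-rich cell, and 4 without plate 2 and the deepest cell of each sum. Without the replicate block it was also 0, with 111 genes at an unadjusted p under 0.05 by edgeR. Genes of the lists gave 0 to 5 calls with 1 plate left out, 1 with no filter, 2 without plate 2 and the Kcnq1ot1-rich cell and 4 without plate 2 and the deepest cells. The Cd5 difference ranged from 0.63 to 1.32 with 1 plate left out and passed at 0.97 with no filter, at 1.33 without plate 2 and the Kcnq1ot1-rich cell and at 1.23 without plate 2 and the deepest cells. Its share difference was 24.1 points in thinned cells. Upper against lower CD5 cells of the High class gave 0 to 5 calls with 1 plate left out (5 without plate 2), 4 without the Kcnq1ot1-rich cell, 8 without it and plate 2, and 1 without plate 2 and the deepest cells. Variable genes numbered 5 without thinning and 18 in the top 10%. Signs turned for Kcnq1ot1 (-0.0051 to 0.38 with 1 plate left out, -0.099 without the rich cell, -0.078 without plate 2 as well), Gm17821 (-0.12 and -0.067 in those last settings), A630089N07Rik (-0.020 without that cell), Ly6c1 (-0.99 to 0.23 with 1 plate left out, 0.065 thinned) and Rn45s (0.14 thinned). Within the High class they turned for Rn45s (-0.45 to 0.098 with 1 plate left out, 0.012 without the block), Cd6 (-0.29 to 0.025 with 1 plate left out, 0.044 without plate 2 and the Kcnq1ot1-rich cell, 0.048 without plate 2 and the deepest cells) and Folr4 (0.0047 in that last setting). The cause was not tested.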
